A study of Mus musculus with 18 samples.

Results

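Chemokines are small secreted proteins that steer leukocytes through their receptors on the cell surface, and 53 genes of this system were followed through normal mouse lung and 2 kinds of lung tumour. A gene was included where an array probe set with a single gene symbol carried a name of the form Ccl, Cxcl, Cx3cl, Xcl, Ccr, Cxcr, Cx3cr, Xcr or Ackr with a number, and each gene was represented by its probe set with the highest mean over all arrays. The 53 genes were 33 ligands and 20 receptors, out of 18193 genes measured. They carried 85 probe sets, and 20 of them had more than 1. A further 4 probe sets named several genes at once and were left out of the tests.

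The animals were B6C3F1/N mice, a hybrid strain bred for long carcinogenicity studies, in an inhalation study of cobalt metal dust. Mice of both sexes, 5 to 6 weeks old at the start, breathed particles at concentrations of 1.25, 2.5 and 5 mg/m3, or no cobalt, for 6 hours a day on 5 days of the week, over at most 105 weeks. There were 6 arrays of lung from vehicle controls (control lung), 6 of spontaneous lung tumours and 6 of lung tumours from cobalt-exposed mice (cobalt tumours), and the tumours had been cut away from the lung around them before freezing. No engineered allele is named for any group. The labels give no dose or sex for an array and do not say that a group's arrays are of different mice, so a p-value here speaks of the spread among these arrays, which may be technical. Levels are the deposited log2 RMA values, on which a difference of 1 is a doubling.

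In the inflamed lung, CXC chemokines that carry the ELR motif (glutamate, leucine, arginine) before their cysteines act mainly on neutrophils through Cxcr2, while CC chemokines act mostly on monocytes, macrophages, dendritic cells, eosinophils and T cells. Interferon induces a further set, Cxcl9, Cxcl10 and Cxcl11, which bind Cxcr3 on T and NK cells. Homeostatic chemokines such as Cxcl12 are made without inflammation by stromal and vessel cells, and atypical receptors (Ackr) bind and remove chemokines without the usual G protein signal.

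Array medians lay between 6.32 and 6.45, and Sftpc, which encodes a surfactant protein of the lung epithelium, was at 14.27 to 15.26 in all 18 arrays. Epcam, an epithelial surface gene, was higher in spontaneous tumours (4.65-fold) and cobalt tumours (5.08-fold) than in control lung, and the 13 markers of blood vessel endothelium were lower in both. Control 1 stood apart by its neutrophil markers, whose mean was 12.33 against 7.02 to 8.59 in the other controls. Cobalt tumour 6 lay nearest to the controls, with an endothelial mean of 10.88 against 7.60 to 9.12 in the other cobalt tumours. Control 6 is a control by its title, source and group label but a spontaneous tumour by its free-text description, and its endothelial mean of 11.69 lay within the 11.46 to 11.83 of the other controls. Xist, which is transcribed from the inactive X of females, was above a level of 10 in 6 of 6 control arrays, 2 of 6 spontaneous and 4 of 6 cobalt tumours. Xist class, used in place of sex because the labels give none by array, was therefore partly confounded with group.

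Chemokine genes changed in both directions in the tumours, and the rises were all in ligands. Against control lung, 9 of the 53 genes were higher in spontaneous tumours (limma over all genes, Benjamini-Hochberg adjusted p under 0.05): Cxcl3, Cxcl5, Ccl17, Ccl6, Ccl9, Ccl3, Ccl22, Ccl2 and Ccl25. That was 17.0% of the members, near the 16.4% of all 18193 genes called higher. The 7 lower genes were Cxcl12, Ackr2, Ccl5, Ccl27a, Cxcr3, Cxcl14 and Ackr4, or 13.2% of the members against 18.2% of all genes. All arrays of spontaneous tumours lay above all controls for 3 members (all genes 9.21%) and below them for 2 (all genes 11.9%). In cobalt tumours 3 members were higher, Cxcl3, Ccl17 and Ccl6, or 5.66% against 14.7% of all genes. The 11 lower members, Ackr2, Ccl5, Cxcl12, Cxcr6, Cxcr3, Ccl27a, Cxcl13, Ccr2, Ccr6, Ackr4 and Xcr1, made up 20.8% against 19.3% of all genes. Arrays of cobalt tumours lay wholly above the controls for 1 member (all genes 8.1%) and wholly below for 4 (all genes 10.8%).

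By role, 9 of 33 ligands (27.3%) and 0 of 20 receptors were higher in spontaneous tumours. Lower there were 4 ligands (12.1%) and 3 receptors (15.0%), beside 16.4% of all genes higher and 18.2% lower. In cobalt tumours 3 ligands (9.09%) and 0 receptors were higher, and 4 ligands (12.1%) and 7 receptors (35.0%) lower. Of all genes 14.7% were higher and 19.3% lower there. Counts from the marker lists below are read against the same shares of all genes. At an unadjusted p under 0.05 the number of higher receptors was also 0 in both. The median log2 difference of the 33 ligands from control lung was 0.29 in spontaneous and 0.08 in cobalt tumours, and that of the 20 receptors was -0.24 and -0.27, beside medians of -0.03 and -0.03 over all genes. Both tumour groups were set against the same 6 controls, so their differences from control share those arrays. Of the 53 members, 18 lay among the 6064 dimmest genes, where the background of the array is unknown and RMA can make a difference too small.

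**Figure D1:**
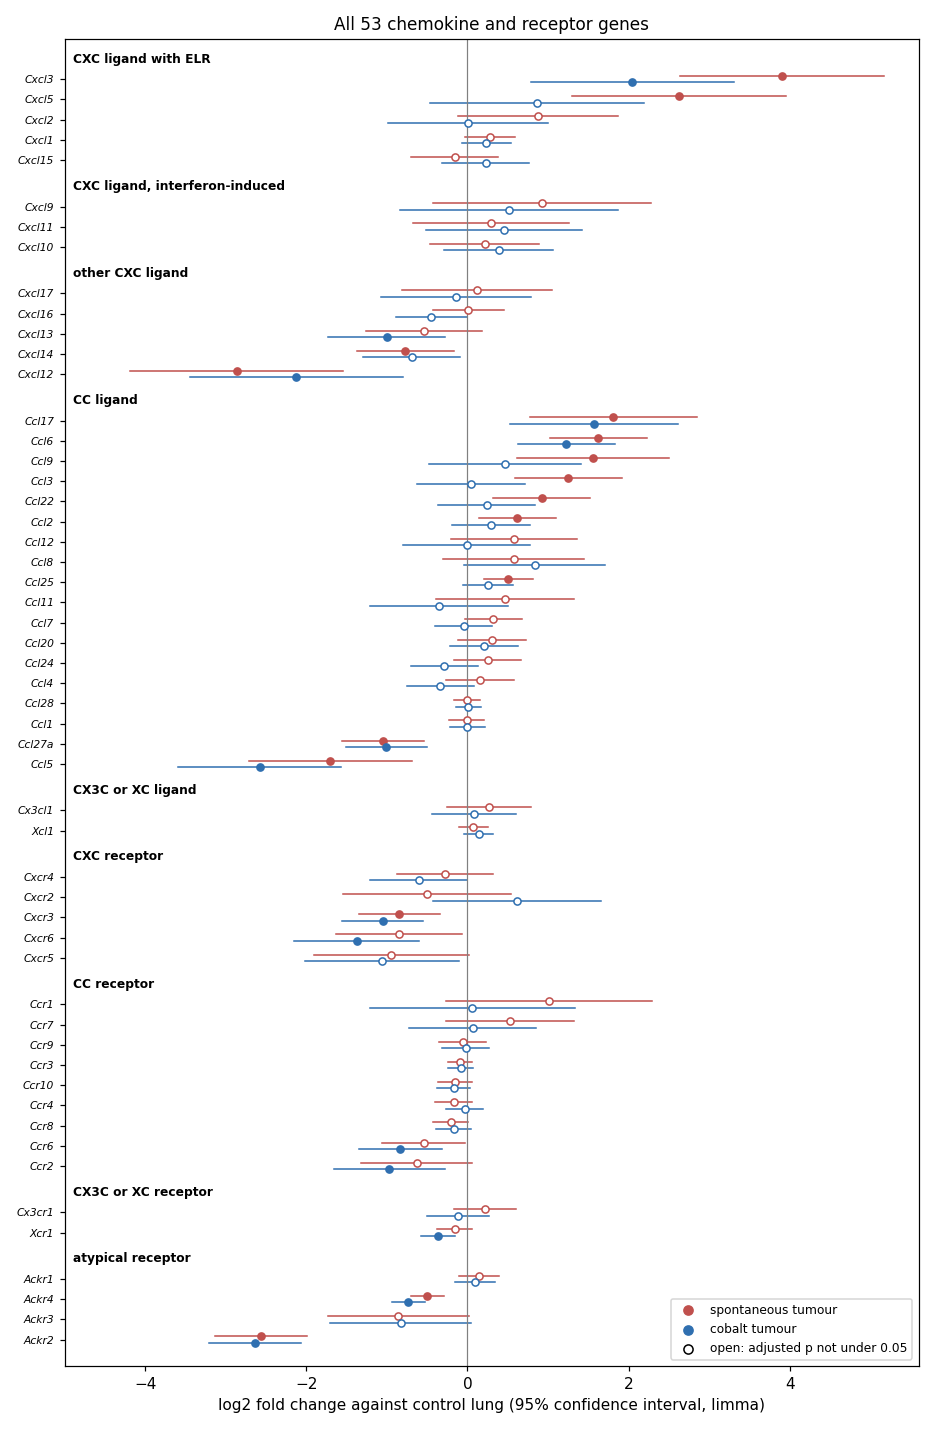
Log2 fold changes against control lung (x axis) for all 53 chemokine and receptor genes, ordered by role and by the value in spontaneous tumours, with 95% confidence intervals from limma; filled points passed an adjusted p of 0.05. Cxcl3 lies farthest to the right, at 3.91 in spontaneous tumours, Cxcl12 farthest to the left, at -2.86, and no receptor has a filled point above 0.

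The ELR CXC ligands held the largest rise of all members. Cxcl3, a neutrophil attractant, lay at 3.81 to 4.43 in control lung (median 4.01), 6.23 to 9.75 in spontaneous tumours (median 8.02) and 4.28 to 7.63 in cobalt tumours (median 6.45). All spontaneous tumours were above all controls, whereas the lowest cobalt tumour overlapped the highest control. The rise was 15.0-fold in spontaneous tumours (log2 3.91, SE 0.60, limma adjusted p = 7.87e-05) and 4.13-fold in cobalt tumours (log2 2.04, SE 0.60, adjusted p = 0.0131). Cxcl5, an epithelial neutrophil attractant, lay at 4.24 to 5.19 in control lung (median 4.56), 4.80 to 10.73 in spontaneous tumours (median 7.04) and 4.88 to 6.30 in cobalt tumours (median 5.38). In 5 of 6 spontaneous tumours it was above every control, and spontaneous tumour 6 was highest at 10.73. The rise was 6.19-fold (log2 2.63, SE 0.63, limma adjusted p = 0.00345), or 3.82-fold without spontaneous tumour 6. In cobalt tumours the difference of 0.86 did not pass (adjusted p = 0.32), although it did when only the control and cobalt arrays were fitted (adjusted p = 0.00851). Both genes are among the 6064 dimmest by their mean.

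Cxcl1, also known as KC, gave no call from its brightest probe set with all arrays, whereas its 2 dimmer probe sets rose in both tumour groups. The brightest one, which represents the gene by the rule, lay at 8.28 to 8.66 in controls, 8.58 to 9.29 in spontaneous tumours and 8.15 to 9.02 in cobalt tumours. The 3 groups overlapped, and the differences of 0.28 and 0.24 did not pass (limma adjusted p = 0.148 and 0.236). Without cobalt tumour 6 the cobalt difference of this probe set was 0.35 and passed (adjusted p = 0.0324). The dimmest of the 3 lay at 5.52 to 6.43 in controls (median 6.01), 6.95 to 10.02 in spontaneous tumours (median 8.65) and 6.76 to 9.54 in cobalt tumours (median 8.57). Here every tumour array was above every control, and with all probe sets fitted together the rise was 6.86-fold (adjusted p = 0.000394) in spontaneous and 4.88-fold (adjusted p = 0.00187) in cobalt tumours. The remaining probe set rose 3.14-fold (adjusted p = 0.0023) and 2.31-fold (adjusted p = 0.0178). The mean of the probe sets passed in both comparisons too (log2 1.57 and 1.24, adjusted p = 0.00123 and 0.00671). Which probe set tracks the Cxcl1 transcript best was not tested.

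**Figure D2:**
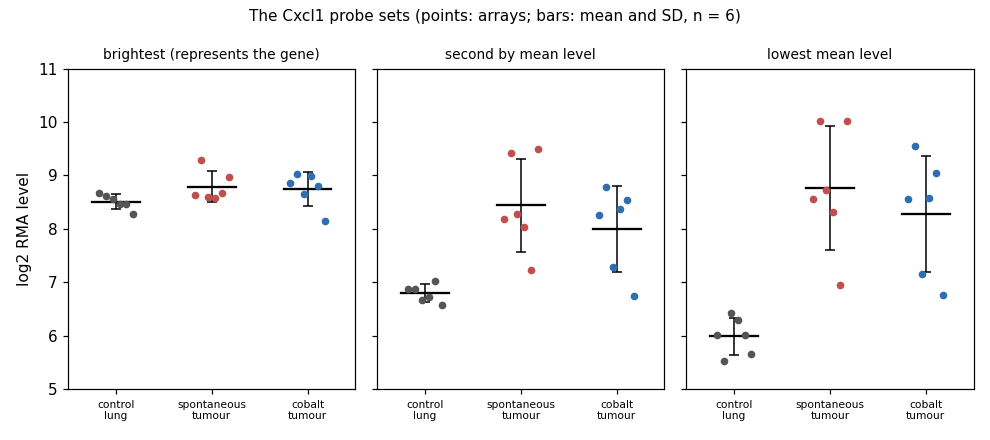
Log2 RMA levels (y axis) of the Cxcl1 probe sets in each array, with the mean and SD of the 6 arrays of each group. The brightest probe set (left), which represents the gene by the rule, stays between 8.15 and 9.29 in all groups, while in the dimmest (right) every tumour array lies above the highest control at 6.43.

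Cxcl2, a further neutrophil attractant also known as MIP-2, lay at 4.67 to 5.55 in control lung, 5.05 to 8.36 in spontaneous and 4.59 to 6.49 in cobalt tumours, and its differences of 0.87 and 0.00 did not pass (limma adjusted p = 0.167 and 0.996). Cxcl15, or lungkine, is made by lung epithelium. It lay at 14.01 to 14.25 in controls and 14.27 to 14.44 in cobalt tumours, which did not overlap, but at 12.79 to 14.68 in spontaneous tumours. The cobalt difference of 0.23 did not pass (adjusted p = 0.542). These levels are close to the top of the deposited scale, 15.26.

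Cxcl5, Cxcl3, Cxcl15, Cxcl1 and Cxcl2 lie near each other, in this order, in RefSeq, and other genes may stand between them. The sequence before the start of Cxcl1, Cxcl2 and Cxcl3 is shown because these 3 share a stretch there. The 120 bases before each RefSeq start (mouse GRCm38.p6, plus strand, 5′ to 3′) are chr5:90891125-90891244 for Cxcl1, chr5:90903779-90903898 for Cxcl2 and chr5:90785981-90786100 for Cxcl3. Capitals mark a run of 11 bases that all 3 hold.
Cxcl1: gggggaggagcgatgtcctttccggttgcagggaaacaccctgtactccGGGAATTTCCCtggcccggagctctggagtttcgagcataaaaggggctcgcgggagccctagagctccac
Cxcl2: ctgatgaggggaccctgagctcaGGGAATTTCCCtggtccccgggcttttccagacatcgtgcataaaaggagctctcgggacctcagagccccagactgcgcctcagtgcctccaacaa
Cxcl3: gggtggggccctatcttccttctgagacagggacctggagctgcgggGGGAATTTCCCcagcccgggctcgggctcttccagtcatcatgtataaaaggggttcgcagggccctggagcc
The run begins 71, 97 and 73 bases before the start of Cxcl1, Cxcl2 and Cxcl3. It occurs in 14 of 32851 RefSeq promoters of 300 bases (0.0426%). It contains the letters GGGANTTTC, a form of the NF-kappaB site, which on either strand are found in 365 of these promoters (1.11%). Of the 40 members with a promoter in the table, 6 held these letters: Ccr3, Cxcl1, Cxcl2, Cxcl3, Cxcl9 and Cxcr2. A match describes the letters only, and no binding was measured here.

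The interferon-induced CXC ligands were high in single tumours, and no group passed the test. Cxcl9 lay at 5.23 to 6.21 in control lung (median 5.42), 5.09 to 8.05 in spontaneous tumours (median 6.01) and 5.18 to 9.34 in cobalt tumours (median 5.34). Cxcl10 reached 8.03 and Cxcl11 8.06 in cobalt tumour 5, whose Cxcl9 was 9.34. Spontaneous tumour 2 had Cxcl9 at 8.05, Cxcl10 at 7.13 and Cxcl11 at 6.32, while spontaneous tumour 1 had Cxcl9 at 7.92 with Cxcl10 at 5.86. The mean of 21 interferon-induced genes was 8.84 in cobalt tumour 5 (other cobalt tumours 7.0 to 7.99). In spontaneous tumour 2 it was 8.86 (other spontaneous tumours 7.47 to 8.04). Cobalt tumour 4 had Cxcl10 at 7.08 with a mean of 7.43, and in spontaneous tumour 1 the mean was 8.04. None of the 3 ligands passed the test in either tumour group, with differences of 0.21 to 0.92 in spontaneous and 0.39 to 0.52 in cobalt tumours and limma adjusted p from 0.288 to 0.655.

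Cxcl12, a homeostatic chemokine that binds Cxcr4 and Ackr3, had the largest fall of all members in spontaneous tumours. It lay at 10.67 to 11.01 in control lung (median 10.89), 6.60 to 9.32 in spontaneous tumours (median 8.07) and 6.62 to 11.79 in cobalt tumours (median 8.64). All spontaneous tumours were below all controls, and so were 5 of 6 cobalt tumours. Cobalt tumour 6, at 11.79, was above every control. Cxcl12 was 7.27-fold lower in spontaneous tumours (log2 -2.86, SE 0.63, limma adjusted p = 0.00178) and 4.36-fold lower in cobalt tumours (log2 -2.12, SE 0.63, adjusted p = 0.0138), or 6.65-fold lower without cobalt tumour 6. Its other probe sets moved less: one differed by -0.76 and -0.55, which did not pass (adjusted p = 0.202 and 0.376), and the other fell by 0.88 and 0.66 (adjusted p = 2.54e-05 and 0.00036). The mean of the 3 was 2.83-fold and 2.16-fold lower. Endothelial markers, 13 of 13 in each tumour group, were lower as well. So were 9 of 13 fibroblast and mural markers in each. Of these 13, 1 was higher in spontaneous tumours, Col1a1 (2.05-fold, limma adjusted p = 0.0155). The part of these cell types in the fall of Cxcl12 was not tested. In pieces of tissue fewer cells of a type and less RNA per cell cannot be told apart.

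Among the receptors of Cxcl12, Cxcr4 lay at 8.35 to 9.38 in control lung, 8.04 to 9.81 in spontaneous and 7.51 to 9.07 in cobalt tumours, with differences of -0.28 and -0.61 that did not pass (limma adjusted p = 0.48 and 0.115). Ackr3, which takes up Cxcl12, lay at 10.08 to 10.60, 8.38 to 10.38 and 8.0 to 11.23, with differences of -0.86 and -0.83 that did not pass either (adjusted p = 0.122 and 0.138). Cobalt tumour 6 again held the highest Ackr3 value.

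Of the other CXC ligands, Cxcl13, which draws B cells through Cxcr5, lay at 7.44 to 9.06 in control lung (median 8.09), 6.65 to 8.32 in spontaneous tumours (median 7.59) and 6.62 to 8.16 in cobalt tumours (median 6.97). The groups overlapped. It was 2.00-fold lower in cobalt tumours (log2 -1.0, SE 0.34, limma adjusted p = 0.0307), a call lost when any 1 of 7 arrays was left out (controls 1, 3 and 4 and cobalt tumours 2 to 5, adjusted p = 0.0518 to 0.0786) and with the Xist class in the model (0.0883). A second probe set fell by 1.98 (adjusted p = 0.046). Cxcr5 lay at 5.02 to 8.77, 4.75 to 5.74 and 4.64 to 5.31 and did not pass (adjusted p = 0.12 and 0.083). Control 3 held the highest Cxcl13 (9.06) and Cxcr5 (8.77) values, and its mean of 10 B cell markers was 8.97 against 6.46 to 7.35 in the other controls. In spontaneous tumours 4 of these markers were lower, in cobalt tumours 7, and their part in the fall of Cxcl13 was not tested.

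Cxcl14, a chemokine of epithelia and fibroblasts, lay at 8.25 to 8.99 in control lung, 7.10 to 9.04 in spontaneous and 7.35 to 8.66 in cobalt tumours. It was 1.71-fold lower in spontaneous tumours (limma adjusted p = 0.0451), a call lost when any 1 of 11 arrays was left out and with the Xist class in the model, and its second probe set did not pass (-0.41, adjusted p = 0.474). The cobalt difference of -0.69 did not pass (adjusted p = 0.0719). Cxcl16, a ligand that exists in a membrane-bound form and binds Cxcr6, differed by 0.01 and -0.45 (adjusted p = 0.97 and 0.112), and Cxcl17, a mucosal chemokine, by 0.12 and -0.15 (adjusted p = 0.863 and 0.837).

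Among the 18 CC ligands, 7 (38.9%) were higher in spontaneous and 2 (11.1%) in cobalt tumours, beside 16.4% and 14.7% of all genes. The same number, 2 (11.1%), were lower in each, beside 18.2% and 19.3% of all genes. Ccl6 and Ccl9, ligands of Ccr1 made by myeloid cells, lie near Ccl3, Ccl4 and Ccl5 in the RefSeq gene order. Ccl6 lay at 11.01 to 12.13 in control lung (median 11.40), 12.72 to 13.78 in spontaneous tumours (median 12.96) and 11.80 to 13.40 in cobalt tumours (median 12.91). All spontaneous tumours were above all controls, and the lower cobalt tumours overlapped them. The rise was 3.08-fold (log2 1.62, SE 0.29, limma adjusted p = 0.000279) and 2.34-fold (log2 1.23, SE 0.29, adjusted p = 0.00278). A dimmer probe set of Ccl6 rose 5.42-fold and 4.22-fold, with every tumour array (10.34 to 12.81) above every control (8.59 to 9.72).

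Ccl9 lay at 7.94 to 9.71 in control lung (median 8.24), 8.79 to 11.60 in spontaneous tumours (median 10.04) and 8.14 to 10.06 in cobalt tumours (median 9.17). The groups overlapped. It was 2.94-fold higher in spontaneous tumours (log2 1.55, SE 0.45, limma adjusted p = 0.0121), while the cobalt difference of 0.47 did not pass (adjusted p = 0.465). Ccl3, an inflammatory ligand of Ccr1 also called MIP-1 alpha, lay at 4.89 to 6.03 in control lung (median 5.18), 5.76 to 7.77 in spontaneous tumours (median 6.40) and 4.52 to 6.26 in cobalt tumours (median 5.34). It overlapped the controls in spontaneous tumours only through control 4, at 6.03. It was 2.39-fold higher there (log2 1.25, SE 0.32, adjusted p = 0.00499), and in cobalt tumours it differed by 0.04 (adjusted p = 0.937). Ccl4, its close relative, differed by 0.16 and -0.33 (adjusted p = 0.569 and 0.218).

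Ccr1, the receptor of these ligands, had its highest level, 10.50, in control 1, the array with high neutrophil markers. The other controls lay at 5.87 to 8.04, spontaneous tumours at 7.87 to 8.98 and cobalt tumours at 6.40 to 8.08. With all arrays the difference in spontaneous tumours was 1.01 (SE 0.61, limma adjusted p = 0.214), and without control 1 it was 1.64 (adjusted p = 0.00498). A second probe set of Ccr1 differed by 0.07 with all arrays (adjusted p = 0.927). Macrophage markers were often higher in spontaneous tumours, where Ccl6, Ccl9 and Ccl3 passed. They were also often higher in cobalt tumours, where Ccl6 passed but Ccl9 and Ccl3 did not. Of all genes, 16.4% were higher in spontaneous and 14.7% in cobalt tumours. Of 14 markers of other macrophages and monocytes, 10 were higher and 0 lower in spontaneous tumours, and 9 were higher and 2 lower (Csf1r and Lyz2) in cobalt tumours. Of 12 alveolar macrophage markers, 7 were higher and 0 lower in spontaneous tumours, and 3 were higher and 1 lower (Car4) in cobalt tumours. The mean of the 14 ran from 8.68 to 9.45 in controls, 9.89 to 10.52 in spontaneous and 9.35 to 9.87 in cobalt tumours, and its part in the rises was not tested.

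Ccl17 and Ccl22, which share the receptor Ccr4 on regulatory and other T cells and are made by dendritic cells and macrophages, were both higher in spontaneous tumours. Ccl17 lay at 6.67 to 7.52 in control lung (median 6.93), 7.32 to 10.50 in spontaneous tumours (median 8.83) and 7.38 to 9.86 in cobalt tumours (median 8.67). Overlap with the controls was limited to 1 spontaneous tumour and 2 cobalt tumours, at 7.32 and at 7.38 and 7.40. The rise was 3.51-fold (log2 1.81, SE 0.49, limma adjusted p = 0.00851) and 2.97-fold (log2 1.57, SE 0.49, adjusted p = 0.02), and the cobalt call was lost without cobalt tumour 2 (adjusted p = 0.0525). Ccl22 lay at 6.14 to 6.65, 6.23 to 8.59 and 6.20 to 7.15. It was 1.89-fold higher in spontaneous tumours (adjusted p = 0.0185), a call lost with the Xist class in the model, and did not pass in cobalt tumours (0.24, adjusted p = 0.571). Ccr4 differed by -0.17 and -0.03 (adjusted p = 0.242 and 0.857). Of 11 dendritic cell markers 2 were higher and 2 lower in spontaneous tumours (18.2% each, beside 16.4% and 18.2% of all genes). In cobalt tumours 1 was higher and 4 were lower (9.09% and 36.4%, beside 14.7% and 19.3%). Fscn1, a gene of mature dendritic cells, was higher in both tumour groups, while Zbtb46 and Irf8 were lower in both.

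The monocyte attractant Ccl2 lay at 5.95 to 6.37 in control lung, 6.34 to 7.93 in spontaneous and 6.08 to 7.05 in cobalt tumours. It was 1.54-fold higher in spontaneous tumours (limma adjusted p = 0.0434), a call lost when any 1 of 10 arrays was left out and with the Xist class in the model. Its highest value was in spontaneous tumour 6, which also held the highest Ccl7 (6.15) and Cxcl5 (10.73). Its neighbours Ccl7, Ccl8, Ccl11, Ccl12 and Ccl1, which attract monocytes, eosinophils or T cells, did not pass in either comparison, with differences of -0.35 to 0.84. Ccr2, the receptor of Ccl2, lay at 7.94 to 10.09 in control lung, 7.13 to 8.78 in spontaneous and 7.23 to 8.09 in cobalt tumours, and was 1.96-fold lower in cobalt tumours (adjusted p = 0.0283). That call was lost without control 1, which held the value of 10.09 (adjusted p = 0.0557), without control 4, cobalt tumour 1 or cobalt tumour 4, and with the Xist class in the model (0.0641). The other 3 probe sets of Ccr2 fell in cobalt tumours as well (adjusted p = 0.00192, 0.0141 and 0.0276), and 1 of them fell in spontaneous tumours (-0.60, adjusted p = 0.00158).

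Ccl5, known as RANTES and made by activated T and NK cells, fell in both tumour groups. It lay at 9.03 to 10.05 in control lung (median 9.68), 6.74 to 10.38 in spontaneous tumours (median 7.67) and 6.48 to 8.26 in cobalt tumours (median 6.65). All cobalt tumours were below all controls, and so were 5 of 6 spontaneous tumours; spontaneous tumour 2, at 10.38, was above every control. Ccl5 was 3.26-fold lower in spontaneous tumours (log2 -1.70, SE 0.48, limma adjusted p = 0.0103), or 4.57-fold lower without spontaneous tumour 2, and 5.98-fold lower in cobalt tumours (log2 -2.58, SE 0.48, adjusted p = 0.000442).

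Cxcr3 fell in both tumour groups and Cxcr6 in cobalt tumours. Cxcr3, the receptor of Cxcl9, Cxcl10 and Cxcl11, lay at 7.02 to 7.51 in control lung (median 7.24), 5.91 to 7.78 in spontaneous tumours (median 6.15) and 5.87 to 6.55 in cobalt tumours (median 6.20). Only spontaneous tumour 2, at 7.78, reached the controls. Cxcr3 was 1.80-fold lower in spontaneous tumours (limma adjusted p = 0.0104, or 0.0571 with the Xist class in the model) and 2.08-fold lower in cobalt tumours (log2 -1.05, SE 0.24, adjusted p = 0.00226). Cxcr6, a receptor of tissue T cells, lay at 6.43 to 7.93 in control lung (median 7.54), 5.50 to 7.17 in spontaneous tumours (median 6.64) and 5.01 to 7.06 in cobalt tumours (median 5.65). The groups overlapped. It was 2.60-fold lower in cobalt tumours (log2 -1.38, SE 0.37, adjusted p = 0.00765), while its second probe set differed by -0.65 there and did not pass (adjusted p = 0.0948). The spontaneous difference of -0.86 did not pass (adjusted p = 0.0847), although it did without control 2 (0.0447) and with only the control and spontaneous arrays (0.0405).

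T and NK cell markers moved with these 3 genes. Lower were 9 of 19 (47.4%) in spontaneous and 13 of 19 (68.4%) in cobalt tumours, beside 18.2% and 19.3% of all genes. The mean of the markers was 6.32 to 6.84 in control lung, 5.58 to 6.84 in spontaneous tumours and 5.57 to 6.14 in cobalt tumours. Spontaneous tumour 2 was the spontaneous array at 6.84. Gzma, a granzyme of killer cells, and Cd2 were among the markers lower in both groups. The part of T and NK cell content in the levels of Ccl5, Cxcr3 and Cxcr6 was not tested.

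Cxcr2, the neutrophil receptor of the ELR ligands, was higher in 4 of 6 cobalt tumours than in any spontaneous tumour and in 5 of 6 controls. In control lung it was 9.72 in control 1 and 6.52 to 7.06 in the other 5. All 6 spontaneous tumours lay at 6.54 to 7.0, whereas cobalt tumours 1, 2, 4 and 5 lay at 8.04, 7.82, 8.26 and 9.35 and cobalt tumours 3 and 6 at 6.83 and 6.72. With all arrays the cobalt difference from control was 0.61 (limma adjusted p = 0.378); without control 1 it was 1.11 (adjusted p = 0.0209), and without control 1 and cobalt tumour 6 it was 1.33 (adjusted p = 0.00331). Cobalt tumours exceeded spontaneous tumours by 1.11, which did not pass (95% confidence interval 0.07 to 2.15, adjusted p = 0.396). In control 1 the mean of 13 neutrophil markers was 12.33, with S100a9 at 14.80 and Csf3r at 12.23. In cobalt tumour 5, with the highest Cxcr2 of the tumours, the mean was 7.41, and over all cobalt tumours S100a9 ran from 6.14 to 11.23 and Csf3r from 6.40 to 7.95. Of the 13 neutrophil markers only Lcn2, which lung epithelium also makes, was higher in the tumours. Which cells held the Cxcr2 RNA, and the part of neutrophil content in its level, were not tested.

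**Figure D3:**
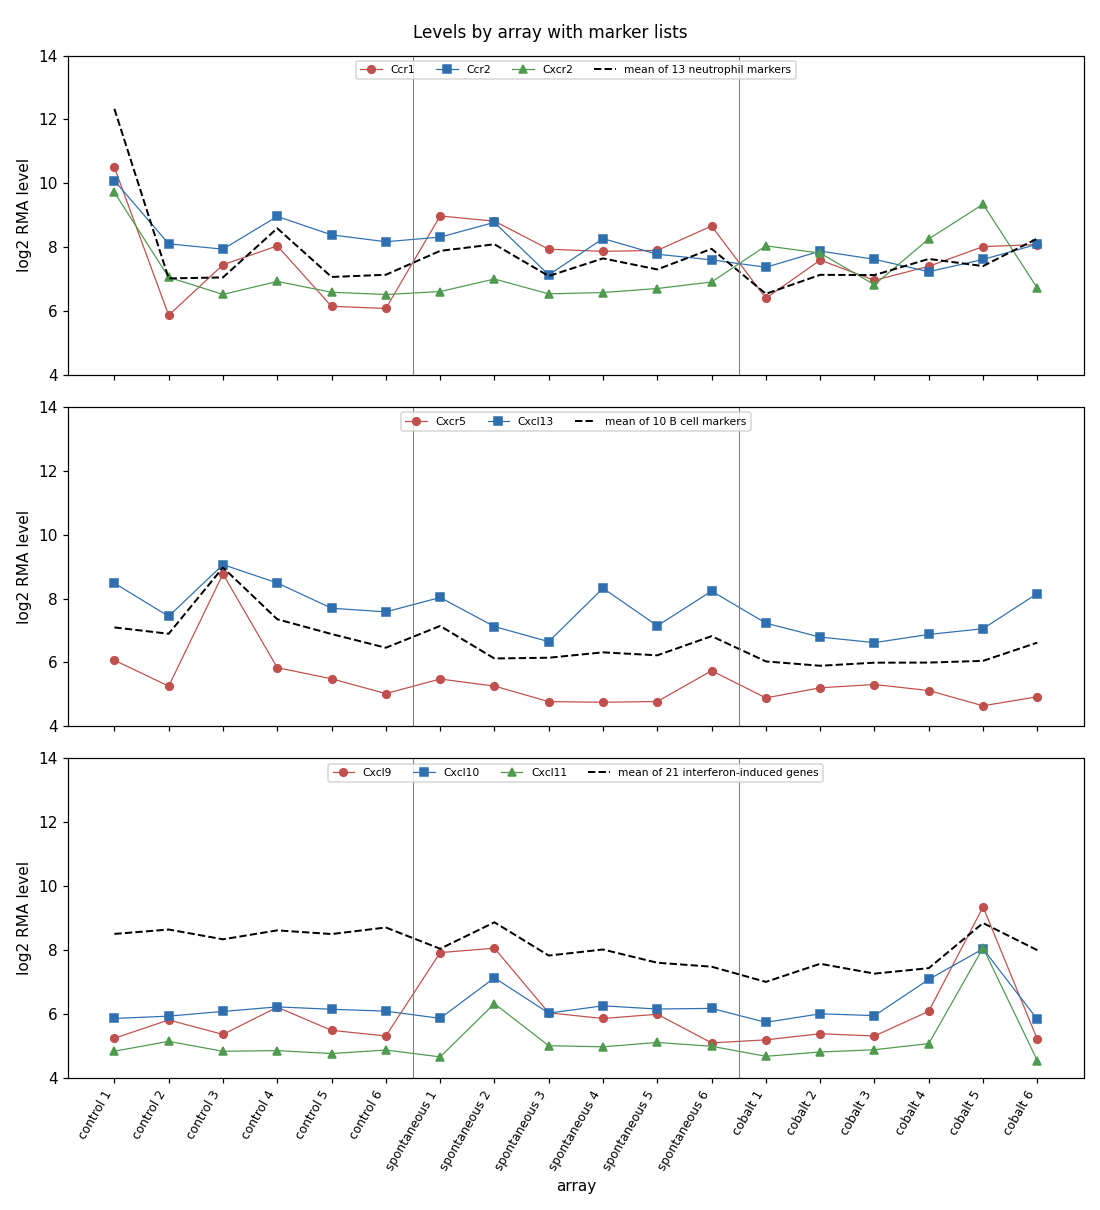
Log2 RMA levels (y axis) in the 18 arrays (x axis) of chemokine genes (solid lines, joined across arrays only to guide the eye) and of the mean of a marker list (dashed). Control 1 is high in Ccr1, Ccr2, Cxcr2 and neutrophil markers, cobalt tumour 5 has Cxcr2 at 9.35 with a neutrophil mean of 7.41, control 3 is high in Cxcr5 and B cell markers, and spontaneous tumour 2 and cobalt tumour 5 are high in Cxcl9, Cxcl10 and Cxcl11.

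The remaining receptors changed less. Ccr6, which binds Ccl20, lay at 7.05 to 7.80 in control lung, 6.26 to 7.83 in spontaneous and 6.06 to 7.43 in cobalt tumours, and was 1.78-fold lower in cobalt tumours (limma adjusted p = 0.0132). Ccl20 differed by 0.31 and 0.21 and did not pass (adjusted p = 0.25 and 0.463). Xcr1, a receptor of cross-presenting dendritic cells, was 1.29-fold lower in cobalt tumours (adjusted p = 0.0102) at levels of 4.38 to 5.18, among the dimmest genes, and its ligand Xcl1 did not pass. Cx3cr1, a monocyte receptor, and its ligand Cx3cl1 differed by -0.12 to 0.27 and did not pass. Ccr7, which guides dendritic and T cells to lymph nodes, lay at 5.89 to 6.43 in control lung and reached 8.77 in 1 spontaneous tumour (adjusted p = 0.297 and 0.916). Ccr3, Ccr8, Ccr9 and Ccr10 differed by -0.21 to -0.02, and none of them passed.

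Ligands of barrier tissues gave small or uncertain changes. Ccl27a lay at 6.44 to 7.18 in control lung (median 6.84), 5.28 to 6.61 in spontaneous tumours (median 5.75) and 5.23 to 6.53 in cobalt tumours (median 5.66), with an overlap between the highest tumours and the lowest control. It was 2.07-fold lower (log2 -1.05, SE 0.24, limma adjusted p = 0.0025) and 2.01-fold lower (log2 -1.01, SE 0.24, adjusted p = 0.00331). Near-identical copies of this gene exist in the mouse, so the source of its signal is uncertain. Of the probe sets with several symbols, 1 of the Ccl27 family lay at 7.10 to 7.44 in control lung, 6.47 to 6.97 in spontaneous and 6.53 to 7.13 in cobalt tumours. Another of this family lay at 6.48 to 7.61, 5.76 to 6.37 and 5.68 to 6.38, with every tumour below every control. Neither was tested. Ccl25, a ligand of Ccr9, was 1.42-fold higher in spontaneous tumours (adjusted p = 0.0116), with all 6 at 6.37 or above and all controls at 6.34 or below. That call was lost with the Xist class in the model, and a second probe set differed by -0.18 there and fell by 0.43 in cobalt tumours (adjusted p = 0.0025). Ccl28, a mucosal ligand, differed by -0.01 and 0.01. Ccl24, which draws eosinophils, differed by 0.25 and -0.28 (adjusted p = 0.353 and 0.296).

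The atypical receptor Ackr2, which takes up and degrades inflammatory CC chemokines, had the smallest p of all members. It lay at 9.80 to 10.54 in control lung (median 10.09), 6.88 to 7.92 in spontaneous tumours (median 7.69) and 6.60 to 8.77 in cobalt tumours (median 7.35). Every tumour array was below every control, and cobalt tumour 6 was the highest tumour. Ackr2 was 5.92-fold lower in spontaneous tumours (log2 -2.57, SE 0.27, limma adjusted p = 2.17e-06) and 6.23-fold lower in cobalt tumours (log2 -2.64, SE 0.27, adjusted p = 1.76e-06). Its other probe sets fell by 2.67 and 1.83 in spontaneous and by 2.57 and 1.73 in cobalt tumours.

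Ackr2 is known from lymphatic endothelium. Of 7 lymphatic markers 4 (57.1%) were lower in spontaneous and 3 (42.9%) in cobalt tumours, beside 18.2% and 19.3% of all genes. The mean of the 7 was 8.16 to 8.55 in control lung, 6.81 to 7.59 in spontaneous and 6.66 to 8.65 in cobalt tumours, with cobalt tumour 6 at 8.65. A probe set shared by the Ccl21 genes, whose products are made by lymphatic vessels, lay at 10.16 to 10.85 in control lung, 6.15 to 9.81 in spontaneous and 6.25 to 10.77 in cobalt tumours; it was not tested. The part of lymphatic or other vessel content in the level of Ackr2 was not tested.

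Ackr4, which takes up Ccl19, Ccl21 and Ccl25, lay at 5.49 to 5.98 in control lung, 5.03 to 5.53 in spontaneous and 4.91 to 5.27 in cobalt tumours and fell by 0.50 and 0.73 (limma adjusted p = 0.000718 and 2.16e-05). It is among the dimmest genes, and its other probe sets differed the other way, by 0.08 to 0.41, without passing. A probe set shared by the Ccl19 genes lay at 6.70 to 7.50 in control lung, 6.30 to 6.64 in spontaneous and 6.32 to 6.97 in cobalt tumours and was not tested. Ackr1, the Duffy receptor of venules and red cells, differed by 0.14 and 0.09 (adjusted p = 0.382 and 0.6).

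**Figure D4:**
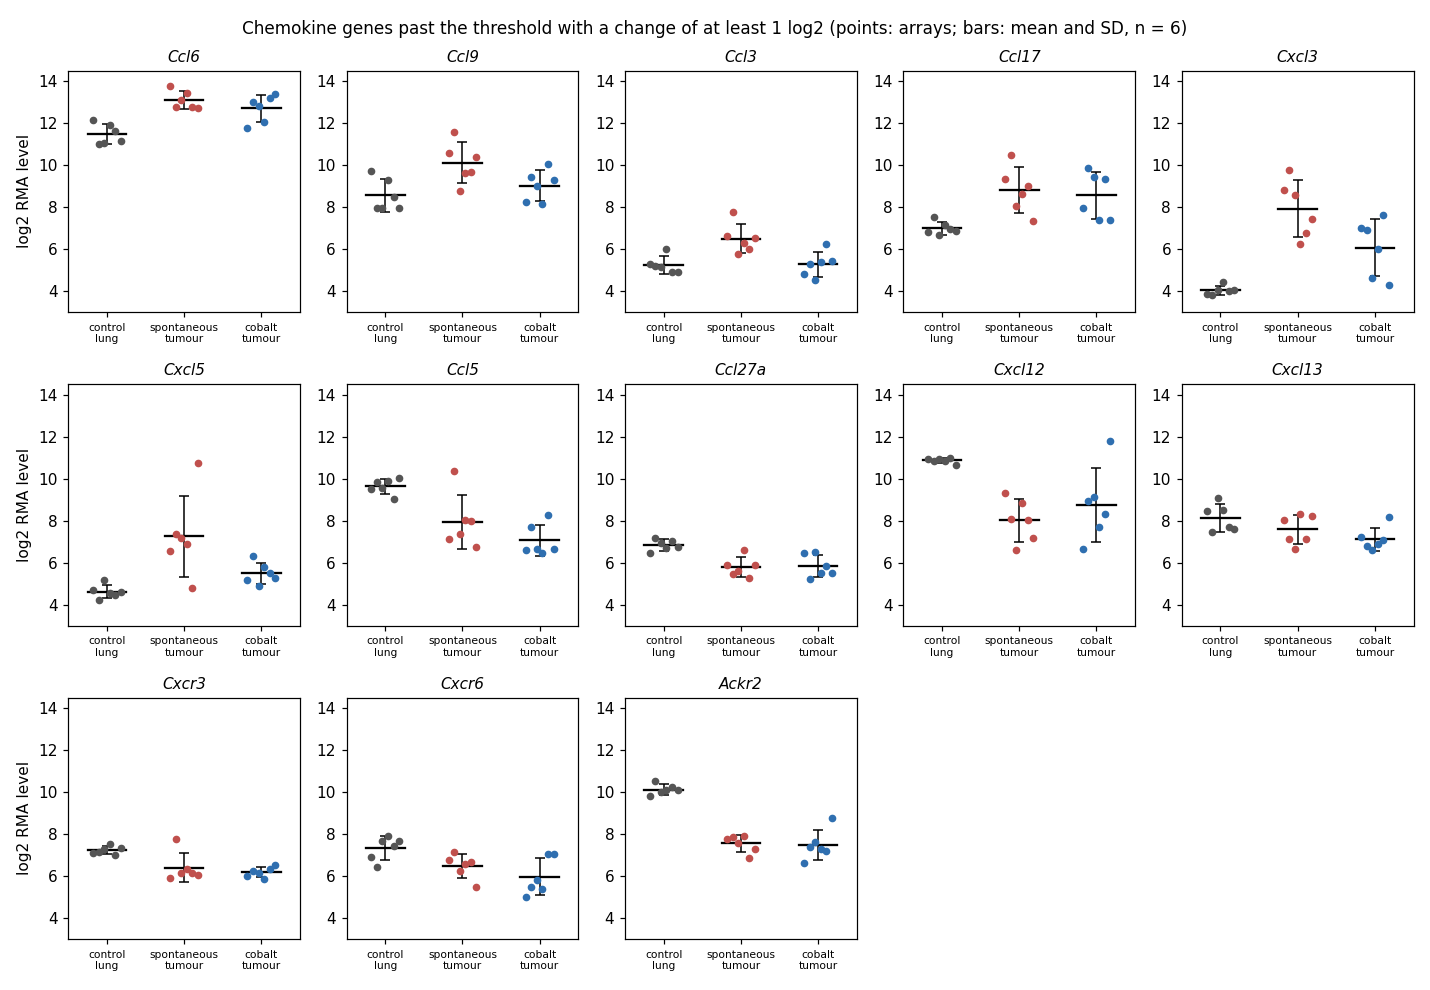
Log2 RMA levels (y axis) of the 13 members that passed the threshold with a log2 change of at least 1, in each of the 6 arrays of a group, with the mean and SD. In Cxcl3, Ccl6, Cxcl12 and Ackr2 all spontaneous tumours lie apart from the controls, in Ccl5, Cxcr3 and Ackr2 all cobalt tumours do, and cobalt tumour 6 is the single high point of Cxcl12 at 11.79.

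Cobalt and spontaneous tumours did not differ in any of the 53 members by limma, beside 0.0824% of all genes called in this comparison. The smallest adjusted p was 0.166, and 11 members had an unadjusted p under 0.05. The levels of 37 members were lower in cobalt tumours and those of 16 higher, with a median of -0.24 beside -0.00 for all genes. The largest differences were in Cxcl3 (-1.86, 95% confidence interval -3.12 to -0.60, adjusted p = 0.228), Cxcl5 (-1.77, -3.09 to -0.44, 0.272) and Ccl3 (-1.21, -1.88 to -0.55, 0.166). These intervals leave room for differences of several fold, so a missed threshold does not show that the tumour groups were alike. Rises that passed in spontaneous tumours alone, such as Cxcl5, Ccl9, Ccl3 and Ccl22, were thus not shown to differ from those in cobalt tumours.

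A list of 9 chemokine and related genes named outside the usual pattern included chemerin and its receptors. Of these, 2 were higher and 4 lower in spontaneous tumours (22.2% and 44.4%, beside 16.4% and 18.2% of all genes). In cobalt tumours 2 were higher and 5 lower (22.2% and 55.6%, beside 14.7% and 19.3% of all genes). Ppbp, the platelet CXC chemokine, lay at 9.01 to 11.22 in control lung and at 4.44 to 8.29 and 4.42 to 7.23 in the tumours, 17.3-fold and 32.8-fold lower (limma adjusted p = 0.000135 and 2.1e-05). Platelet and red cell markers were lower as well, 5 of 6 in each group, and their part in this fall was not tested. Pf4, a further platelet chemokine that macrophages also make, lay at 9.08 to 10.00, 9.34 to 13.04 and 9.79 to 13.08 and was 4.28-fold higher in cobalt tumours (adjusted p = 0.0155), with an adjusted p of 0.0681 in spontaneous tumours. Rarres2 (chemerin) was 5.01-fold and 5.59-fold lower, its receptor gene Cmklr1 3.92-fold and 3.81-fold lower, and Ccrl2, which binds chemerin without signalling, 4.27-fold and 5.49-fold lower. Mif, a cytokine that can bind Cxcr2 and Cxcr4, was 3.89-fold and 3.09-fold higher.

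Genes that act below the receptors gave shares near those of all genes in spontaneous tumours and fewer rises and more falls in cobalt tumours. Of 25 receptor signalling genes 3 were higher and 6 lower in spontaneous tumours and 0 were higher (2 at an unadjusted p under 0.05) and 10 lower in cobalt tumours, with a median log2 difference of -0.22 and -0.71 beside -0.03 for all genes in each. The shares higher and lower were 12.0% and 24.0% in spontaneous tumours (all genes 16.4% and 18.2%) and 0% and 40% in cobalt tumours (all genes 14.7% and 19.3%). Rgs18, a regulator of G protein signalling found in platelets and myeloid cells, was 6.80-fold and 7.21-fold lower, and Grk5, a receptor kinase, 4.18-fold and 4.25-fold lower (limma adjusted p from 8.47e-06 to 0.0001). Of 18 adhesion and selectin genes of leukocyte entry 0 were higher by limma in either tumour group, also at an unadjusted p under 0.05, while 7 were lower in spontaneous and 8 in cobalt tumours. These included Icam2, an adhesion molecule of endothelium and leukocytes (12.2-fold lower in both), and Itga4, an integrin of lymphocytes (2.87-fold and 3.93-fold lower).

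The lists of upstream genes are read against all genes, of which 16.4% were higher and 18.2% lower in spontaneous tumours and 14.7% and 19.3% in cobalt tumours. Of 28 inducing cytokines and their receptors 2 were higher and 5 lower in spontaneous tumours, and 2 were higher and 4 lower in cobalt tumours, so the shares lower, 17.9% and 14.3%, were not above those of all genes. Csf2, the growth factor GM-CSF, rose 3.03-fold and 2.46-fold (limma adjusted p = 0.00923 and 0.0301). Of 20 NF-kappaB factors and feedback genes 2 were higher and 4 lower in spontaneous tumours, and 1 was higher and 9 lower in cobalt tumours (20.0% and 45.0% lower); Nfkbia, the inhibitor that NF-kappaB itself induces, was 2.10-fold and 2.24-fold lower. Of 21 interferon-induced genes 7 were lower and 0 higher (1 at an unadjusted p under 0.05) in spontaneous tumours, 11 lower and 1 higher in cobalt tumours (33.3% and 52.4% lower). Of 19 proteases that cut chemokines 5 were higher in each tumour group (26.3%), and 3 and 2 were lower (15.8% and 10.5%). Mmp12, the macrophage elastase, rose 31.9-fold and 13-fold (adjusted p = 4.42e-07 and 8.16e-06), from 4.90 to 6.43 in control lung to 9.39 to 11.83 and 8.24 to 10.65, and no tumour overlapped a control.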

How the data were processed

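RNA of 18 mouse lung and lung tumour samples was measured on an Affymetrix 3' expression array, 1 array per sample, grouped by title and source. The authors deposited log2 values, and the submitters' processing notes name RMA; its version is not given in the sources used here. No scanner files or detection calls were used here. RMA in its usual form makes the distributions of the arrays alike, which can hide a shift of all genes. Values ran from 3.34 to 15.26 and were used as deposited.

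The platform annotation gave a single symbol to 34945 of 45101 probe sets, several to 932 and none to 9160. The probe set with the highest mean represented a gene, which left 18193 genes. The fit used limma 3.58.1 (lmFit, eBayes) in R 4.3.3, with group as the only factor over all 18 arrays. Tests were two-sided, with p adjusted over all genes by Benjamini and Hochberg at 0.05, and the procedure was tested on simulated data. The number of arrays limits the precision. Values by group are printed for members past the threshold with a log2 change of at least 1, for ligand and receptor partners of these and in brief for others, and at most 4 genes in each direction from another list. The members and lists were chosen with earlier results of these data known. Alternatives were cyclic loess, omitting the 6064 dimmest genes, averaged probe sets, eBayes with trend and robust options, 2 groups only, a replicate block, the Xist class as a covariate and each array left out; chosen after seeing the data were the fit without control 1 and cobalt tumour 6 and that of all probe sets. Promoter sequences and gene order are from RefSeq (GRCm38.p6), in which 40 of 53 members matched a promoter by symbol.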

Additional observations from a re-analysis of the deposited data

Results flagged for a closer look

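In each of the 159 groups of 6 levels (53 genes in 3 groups) the highest or lowest array was compared with its nearest neighbour by Dixon's ratio, and 17 of these levels, in 10 of the 18 arrays, stood apart; chance flags about 1 in 20 groups. Spontaneous tumour 2 stood apart in Ccl5 (10.38), Cxcr3 (7.78), Cxcl10 (7.13) and Cxcl11 (6.32). Cobalt tumour 5 stood apart in Cxcl9 (9.34), Cxcl11 (8.06) and Ccl20 (7.55), and spontaneous tumour 6 in Ccl2 (7.93) and Ccl7 (6.15). Control 1 stood apart in Cxcr2 (9.72) and control 3 in Cxcr5 (8.77), the arrays with the highest neutrophil and B cell marker means among the controls. The others were control 4 in Ccl3 (6.03), control 2 in Cxcl11 (5.14), spontaneous tumour 5 in Ccl25 (7.53), cobalt tumour 4 in Cxcl2 (6.49), and cobalt tumour 6, high in Ccl11 (5.77) and low in Ccl28 (6.07).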

How the results depend on the processing

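Counts of members higher and lower in spontaneous tumours (9 and 7) stayed within 1.5 times under every alternative run, from 6 to 10 and from 5 to 8; with each array left out in turn they ran from 8 to 9 and from 6 to 7. In cobalt tumours the 3 higher members became 6 with only the 12 control and cobalt arrays in the fit (adding Ccl25, Cxcl15 and Cxcl5) and 5 without control 1 and cobalt tumour 6 together (adding Cxcl1 and Cxcr2), and 2 to 4 with single arrays left out, 2 without cobalt tumour 2. The 11 lower members ran from 9 to 12 with single arrays left out. Between the tumour groups the count was 0 under every alternative. With the Xist class as a covariate Ccl2, Ccl22, Ccl25, Cxcl14 and Cxcr3 lost their calls in spontaneous tumours and Ccr2 and Cxcl13 in cobalt tumours. Leaving out the dimmest genes removes Cxcl3, Cxcl5 and Ccl3 before the test. With the replicate number as a block the counts were 8 and 7 in spontaneous and 3 and 11 in cobalt tumours. The numbers are not shown to pair samples, since correlations of deviations between same-numbered arrays ran from -0.34 to 0.19. Directions were compared for members with a call and a log2 change of at least 1, and for Ccr1, Ccr2, Cxcr2 and Cxcl1. No difference that passed in the main or the alternative fit changed its sign between them. Sign changes of differences that passed in neither fit were not counted. Cyclic loess moved the median over all genes by at most 0.04. Unknown array background limits the dim members, and the causes of lost calls were not tested.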
